A study of Mus musculus with 10 samples.

Results

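The nuclear genes for the subunits of the mitochondrial respiratory chain and of ATP synthase were followed in both RNA-seq tables of a mouse prostate cancer study. Members were the rows whose symbol names a subunit of complex I (Nduf genes), complex II (Sdha to Sdhd), complex III (Uqcr genes), complex IV (Cox4 to Cox8 genes) or complex V, the ATP synthase (Atp5 genes), with pseudogene symbols left out. This gave 84 of the 48897 rows, of which 37 belonged to complex I, 4 to complex II, 8 to complex III, 18 to complex IV and 17 to complex V. The symbols do not follow present knowledge in every case. Ndufa4, counted here with complex I, is now placed in complex IV, Cox7a2l joins complexes III and IV into supercomplexes, and Atp5sl, named Dmac2 in the annotation, is an assembly factor of complex I that the symbol places with complex V.

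Complexes I and II pass electrons from NADH and succinate to ubiquinone, complex III passes them on to cytochrome c, and complex IV hands them to oxygen. Complexes I, III and IV pump protons as they do so, and complex V uses the returning protons to make ATP. Complex II pumps none, is also an enzyme of the tricarboxylic acid cycle, and is the only complex built from nuclear genes alone. The healthy prostate epithelium is known for secreting citrate rather than oxidising it, and for turning to citrate oxidation in cancer.

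The first table held RPKM values (read numbers divided by the length of the gene and by sequencing depth) of EpCAM+ CD45- cells sorted from prostates of C57BL/6 mice at 3 months of age. Both groups shared a gene deletion, 3 control libraries (A, B and C) had that deletion alone, and 3 libraries (A, B and C) were labelled Arid1a PC-/- in addition. The deletions were driven by Probasin-Cre, which acts in prostate epithelium, so neither group was wild type. The second table held TPM values (scaled by gene length and to the same sum in each library) of the Myc-CaP line, derived from a prostate tumour of FVB mice, with 2 libraries carrying an empty vector (EV) and 2 labelled Arid1a KO. The labels give the Myc-CaP libraries as cultured cells and do not say whether the 2 KO libraries are separate lines. Arid1a encodes a subunit of the SWI/SNF chromatin remodelling complex. Nothing in the labels ties a library to a single animal or culture, so the p-values below measure the spread between these libraries.

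Several facts of the libraries touch every result below. Arid1a itself stood at 27.8, 21.9 and 26.5 RPKM in the control libraries and at 31.1, 28.8 and 30.8 RPKM in the epithelium libraries labelled Arid1a KO (log2 fold change 0.25, adjusted p = 0.0540 by limma). The loss that the label names was thus not seen in the gene-level value, and these are called KO-labelled libraries throughout. A gene-level value cannot show which exons are present, and the study's staining of ARID1A protein in prostate sections is not part of these data. In Myc-CaP it was 60.5 and 61.0 TPM with EV and 39.5 and 40.3 TPM with KO (log2 fold change -0.59, adjusted p = 0.0102 by limma). Both epithelium groups expressed the epithelial markers Epcam and Krt8, but the sorted cells also held leukocyte RNA. Ptprc (CD45) rose from 26.0 to 30.3 RPKM in the controls to 56.2 to 58.1 RPKM in the KO-labelled libraries, and all 10 macrophage markers rose, with a summed level of 2730 to 3140 RPKM against 4973 to 5714 RPKM. Of 6 leukocyte markers 5 rose and 1 fell, of 9 neutrophil markers 4 rose and 1 fell, and of 8 T cell markers 5 rose. Of 6 B cell markers 4 rose, with a summed level of 126 to 142 RPKM against 430 to 753 RPKM. Of 8 fibroblast markers 4 fell and of 7 smooth muscle markers 5 fell and 2 rose. The 8 seminal vesicle markers all fell, from a summed 19460 to 21960 RPKM to 647 to 1631 RPKM. Of 10 epithelial markers 3 fell, Epcam among them, and 3 rose. The part of these cell types in the results below was not tested. The Myc-CaP libraries were listed at or near 0 for Epcam and Cdh1, while Krt8 rose from 0.790 to 1.07 TPM with EV to 38.8 to 40.3 TPM with KO. The epithelium values summed to between 441646 and 473331 RPKM in the controls and to between 397999 and 403031 RPKM in the KO-labelled libraries, so every comparison was repeated with each library rescaled to the same sum. Differences are given on the log2(value + 1) scale, KO minus control, and a row was called at an adjusted p under 0.05 (limma, Benjamini-Hochberg over all rows tested).

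Promoter windows of RefSeq on GRCm38.p6, 250 bases before to 50 bases after the start, were at hand for 66 of the 84 members. Because many members moved together, some windows are shown, chosen by hand. They are those of Ndufs5, which had the largest fall of all members, and of Ndufa11 and Uqcr11, with log2 fold changes of -0.87 and -0.89. Also shown are a complex V member that holds 3 of the motifs searched and the complex II member that was called. Each window shown holds a motif, against 30 of the 66 members. Uqcrh, with a larger fall than Uqcr11 (-0.93), was not shown, so the choice links no fall to a motif. Each runs 5′ to 3′ on the gene's strand and ends before the annotated start, and capitals mark a motif match on either strand.
Ndufs5: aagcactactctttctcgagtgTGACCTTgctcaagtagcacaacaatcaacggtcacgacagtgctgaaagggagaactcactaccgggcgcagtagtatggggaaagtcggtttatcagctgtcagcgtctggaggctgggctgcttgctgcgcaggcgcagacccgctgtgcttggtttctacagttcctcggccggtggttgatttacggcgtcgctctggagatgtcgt
Ndufa11: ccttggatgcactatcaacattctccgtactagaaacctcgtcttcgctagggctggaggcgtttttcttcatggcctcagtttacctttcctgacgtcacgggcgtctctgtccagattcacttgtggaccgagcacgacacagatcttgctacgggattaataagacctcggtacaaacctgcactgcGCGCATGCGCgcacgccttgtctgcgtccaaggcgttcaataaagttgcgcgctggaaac
Uqcr11: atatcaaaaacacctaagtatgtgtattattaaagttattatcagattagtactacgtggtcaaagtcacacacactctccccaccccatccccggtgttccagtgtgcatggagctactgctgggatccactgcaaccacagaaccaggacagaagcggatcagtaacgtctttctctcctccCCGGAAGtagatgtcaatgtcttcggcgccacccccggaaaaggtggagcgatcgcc
Atp5l: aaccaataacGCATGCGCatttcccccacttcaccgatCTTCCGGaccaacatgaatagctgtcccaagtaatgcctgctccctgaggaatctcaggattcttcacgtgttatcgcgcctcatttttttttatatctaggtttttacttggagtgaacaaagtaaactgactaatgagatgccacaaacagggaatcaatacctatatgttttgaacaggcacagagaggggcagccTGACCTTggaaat
Sdhd: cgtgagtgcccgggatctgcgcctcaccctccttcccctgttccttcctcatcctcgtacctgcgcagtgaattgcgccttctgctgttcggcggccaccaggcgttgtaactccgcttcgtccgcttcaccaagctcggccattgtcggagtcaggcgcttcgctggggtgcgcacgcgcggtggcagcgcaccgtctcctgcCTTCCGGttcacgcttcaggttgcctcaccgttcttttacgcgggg
The windows lie at chr4:123718203-123718436 (minus strand), chr17:56717512-56717761 (plus strand), chr10:80406831-80407071 (minus strand), chr9:44920743-44920992 (minus strand) and chr9:50603850-50604099 (minus strand), in that order. The letters searched were AAGGTCA (the element read by the ERR receptors), GCGCATGC (the core of the NRF1 site), CCGGAAG (the core bound by ETS factors such as GABP) and ATGGCGGC (a YY1 core). In the stretches printed, Ndufs5 and Atp5l hold the ERR element, Ndufa11 and Atp5l the NRF1 core, which overlaps its own reverse complement in Ndufa11, and Uqcr11, Atp5l and Sdhd the ETS core. Past the annotated start, and so not printed, the windows of Sdhd and Uqcr11 also hold the ERR element and the NRF1 core, respectively. Over the whole windows, the NRF1 core was found in 10 of 66 members (15.2%) and in 2.80% of the 27025 gene windows, and the ERR element in 8 members (12.1%) against 4.66%. The ETS core was found in 15 members (22.7%) against 9.12%, and the YY1 core in 6 members (9.09%), all of complex I, against 2.38%. In all, 30 of the 66 members (45.5%) held at least 1 of the 4 motifs, against 17.4% of all windows. Where a gene had more than 1 window, the one nearest the annotated start was taken for members and the first listed for other genes. The shares are therefore not fully like for like, and their difference was not tested. These are matches of letters and say nothing on what binds there.

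In the sorted epithelium, the subunits of the proton-pumping complexes and of ATP synthase were lower together in the libraries labelled Arid1a KO, while complex II had a smaller median difference. Of 81 members tested, 69 (85.2%) were called lower, against 29.6% of all rows, 1 was called higher, against 27.5% of all rows, and 11 were not called. The median log2 fold change of the members was -0.54, and that of all 16275 rows tested was -0.028. By complex, 35 of 37 were lower in complex I (median -0.59), 1 of 4 in complex II (-0.15), 7 of 8 in complex III (-0.58), 12 of 15 in complex IV (-0.53) and 14 of 17 in complex V (-0.49). In 74 members (91.4%) every KO-labelled library lay below every control library, which held for 34.4% of all rows. By the thresholds of the study, which asked for 1.5-fold and an unadjusted p of 0.05, 32 members were lower, 19 of them in complex I and 0 in complex II, against 13.0% of all rows. That count rested on control library B and on the scaling: it was 15 (9 in complex I) without control library B, against 12.2% of all rows, 12 (8 in complex I) after rescaling, against 8.96%, and 7 (3 in complex I) with both, against 9.14%. The 3 untested members were Cox7b2, listed at 0 in every library, and Cox8b and Cox8c, under the minimum mean of 0.5 RPKM.

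**Figure D1:**
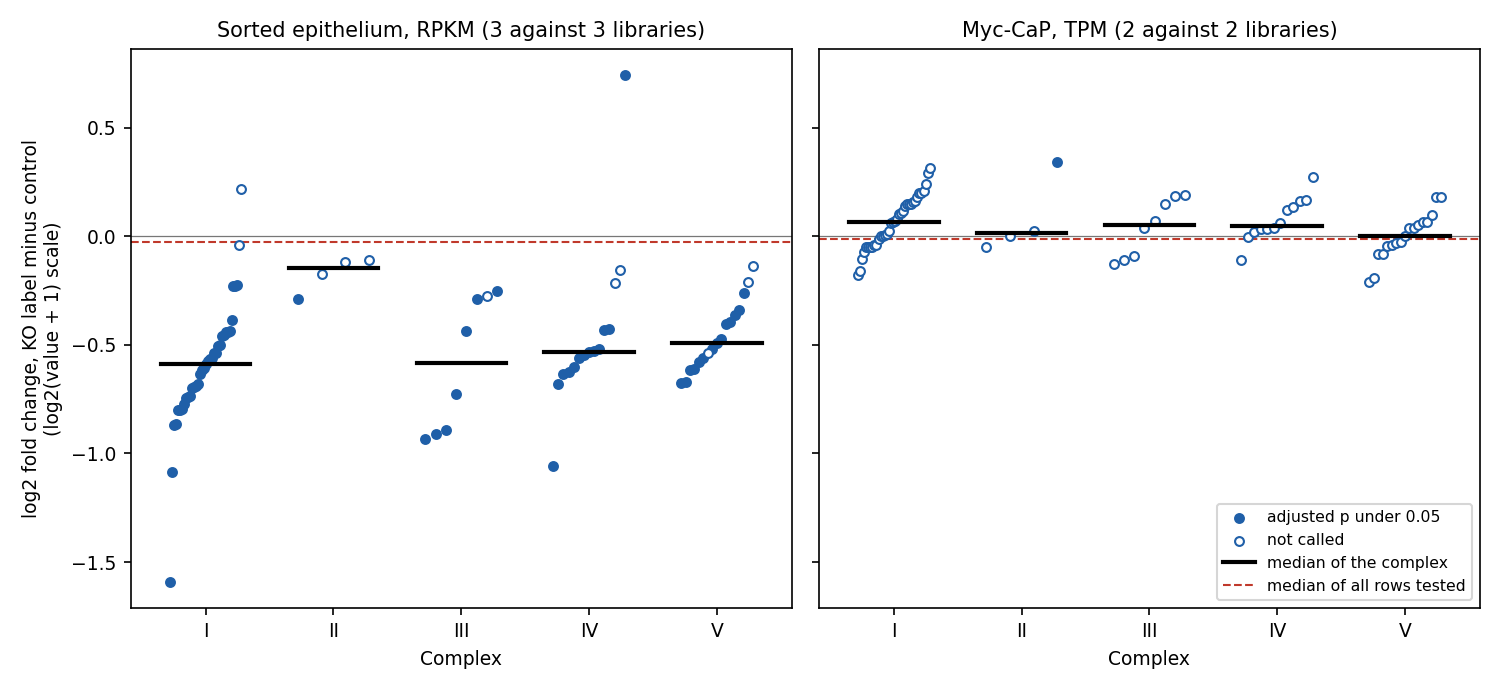
Log2 fold change (KO label minus control, log2(value + 1) scale) of each tested member, by complex, in the sorted epithelium (left) and Myc-CaP (right), with 1 point a member, filled where called, a black bar at the complex median and a dashed line at the median of all rows. In the epithelium 69 of 81 members were called lower and the complex II median lay at -0.15, while in Myc-CaP the complex medians ran from 0.00 to 0.07 and only Sdhb was called.

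Because the sums of the table differed, the falls were read again after rescaling. The median of all rows then moved from -0.028 to 0.109, and the calls over all rows moved from 4823 lower and 4471 higher to 3307 lower and 6028 higher. Of the members, 55 (67.9%) were still lower, against 20.3% of all rows, and 1 was higher, against 37.0% of all rows. Complex I kept 30 members lower (median -0.41), complex III 4 (-0.41), complex IV 11 (-0.35) and complex V 10 (-0.32), whereas complex II had 0 of 4 lower and a median of 0.03. In 59 members every rescaled KO-labelled library lay below every control library, against 23.8% of all rows. The 14 members whose call was lost included Sdhd of complex II, Uqcrc1, Uqcrc2 and Uqcrfs1 of complex III, Cox6a1 of complex IV, and Atp5a1 and Atp5g3 of complex V.

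The summed levels show the same order per library. All 84 members summed to 7452, 9730 and 7715 RPKM over the controls (A to C) and to 5588, 5686 and 5875 RPKM in the KO-labelled libraries. This was 1.69%, 2.06% and 1.73% of the table sum against 1.39%, 1.43% and 1.46%. Every KO-labelled library lay below every control on both readings, and control library B stood well above the other controls. The complex II sum was 233, 275 and 234 RPKM in the controls and 209, 227 and 225 RPKM in the KO-labelled libraries, also without overlap, but the share of the table sum taken by complex II, 0.0525% to 0.0582% against 0.0520% to 0.0570%, overlapped between the groups. The ratio of the complex II sum to the complex I sum was 0.109, 0.0972 and 0.106 in the controls and 0.137, 0.150 and 0.143 in the KO-labelled libraries. That of complex V to complex I was 1.02 to 1.08 in the controls and 1.18 to 1.23 in the KO-labelled libraries. That of complex IV to complex I was 0.962 to 0.972 in the controls and 1.02 to 1.04 in the KO-labelled libraries. None of these ratios depends on the scaling of a library, and the groups overlapped in none of the 3. The ratio of complex III to complex I, 0.341 to 0.349 against 0.328 to 0.352, did overlap. In bulk libraries, fewer cells of a type and less RNA per cell cannot be told apart.

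**Figure D2:**
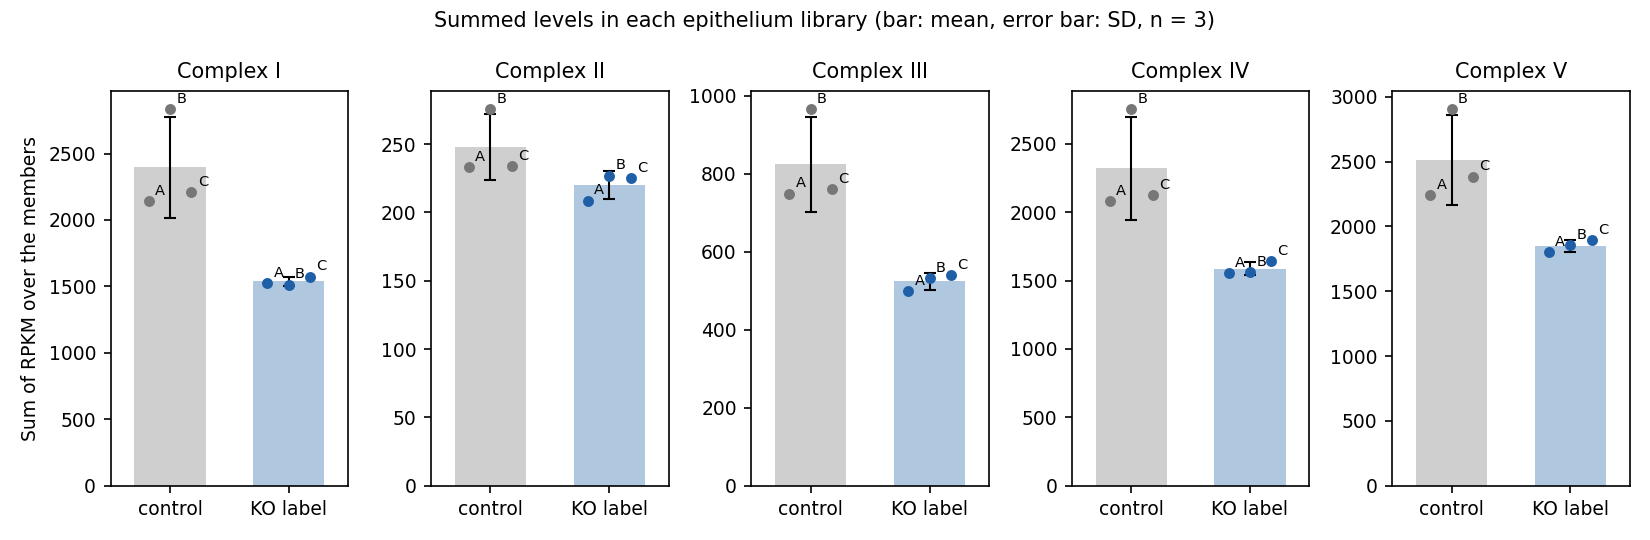
Sum of RPKM over the members of complexes I to V in each epithelium library, with 1 point a library (lettered), a bar at the group mean and an error bar of 1 SD (n = 3). Control library B was the highest in each complex, and the KO-labelled libraries lay below all controls, with the narrowest gap in complex II (208.5 to 226.8 against 233.2 to 275.4 RPKM).

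Complex I holds the site where NADH enters the chain. Its largest fall, and the largest of any member, was that of Ndufs5, an accessory subunit whose promoter window is shown above. Ndufs5 was 49.7, 67.0 and 51.2 RPKM in the controls and 18.5, 16.1 and 18.6 RPKM in the KO-labelled libraries, with a log2 fold change of -1.59 (SE 0.121, adjusted p = 6.06e-05 by limma). The lowest control was well above the highest KO-labelled library. Ndufa1, an accessory subunit of the membrane arm encoded on the X chromosome, was 81.3, 99.2 and 90.8 RPKM against 45.4, 33.0 and 49.3 RPKM (-1.09, SE 0.149, adjusted p = 0.000748). Ndufa4, the most abundant row of the Nduf set, was 169, 218 and 179 RPKM against 112, 107 and 117 RPKM (-0.74, SE 0.103). Both again separated completely. Ndufa11 and Ndufv3 fell by 0.87 on the log2 scale each.

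The core subunits of complex I carry the flavin, the iron-sulfur clusters and the quinone site and are shared with bacteria. Of 7 nuclear core subunits 6 were called lower (median -0.45), and of 30 accessory subunits 29 were (median -0.62). The accessory genes also have the shorter annotated transcripts, with a median length of 627 bases against 977 bases. After a length trend was removed, the medians were -0.32 for core and -0.44 for accessory subunits. The difference between core and accessory subunits was not tested. Ndufv1, which binds the flavin and NADH, was 59.6, 71.6 and 59.6 RPKM against 43.4, 49.2 and 45.6 RPKM (-0.45, SE 0.090, adjusted p = 0.00399). Its groups did not overlap. Ndufs1, which holds several of the iron-sulfur clusters, was 15.3, 16.2 and 16.5 RPKM against 15.1, 16.7 and 14.9 RPKM (-0.04, SE 0.068, adjusted p = 0.622), with overlapping groups. Ndufs1 and Ndufa4l2, a relative of Ndufa4 known to be induced by hypoxia, were the members of complex I that were not called. Ndufa4l2 was 4.62, 5.51 and 5.21 RPKM against 9.58, 5.51 and 4.16 RPKM, and only KO-labelled library A was high.

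Of the 4 subunits of complex II, only Sdhd was called. Sdha, the flavoprotein that oxidises succinate, was 68.3, 71.8 and 66.9 RPKM in the controls and 60.7, 64.4 and 65.5 RPKM in the KO-labelled libraries (-0.12, SE 0.062, adjusted p = 0.138). Sdhb, the iron-sulfur subunit, was 63.5, 80.0 and 62.0 RPKM against 60.6, 66.0 and 62.7 RPKM (-0.11, SE 0.103, adjusted p = 0.396). The Sdha groups were separate by a narrow gap and the Sdhb groups overlapped. Sdhc and Sdhd anchor the complex in the membrane and form its quinone site. Sdhc was 50.2, 65.6 and 54.7 RPKM against 44.6, 54.4 and 51.5 RPKM (-0.17, SE 0.114), with overlap, and was not called. Sdhd was 51.1, 58.1 and 50.3 RPKM against 42.5, 42.0 and 45.4 RPKM (-0.29, SE 0.074, adjusted p = 0.0124). Its groups did not overlap, and after rescaling its difference was -0.11 (adjusted p = 0.162). The rescaled differences of the other members were 0.06 for Sdha, 0.07 for Sdhb and 0.00 for Sdhc. A p that misses the threshold does not show that these genes were equal, and the difference between complex II and the other complexes was not tested.

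In complex III the largest falls were those of small subunits. Uqcrh, the acidic hinge subunit that contacts cytochrome c1, was 136, 204 and 146 RPKM against 76.8, 93.8 and 78.8 RPKM (-0.93, SE 0.157, adjusted p = 0.00188). Uqcr10 was 112, 144 and 107 RPKM against 56.8, 61.8 and 71.4 RPKM (-0.91, SE 0.131), and Uqcr11, the most abundant of the complex, 154, 203 and 162 RPKM against 91.9, 84.1 and 100.3 RPKM (-0.89, SE 0.118). In all 3 genes the groups were far apart. Uqcrfs1, the Rieske iron-sulfur protein, was 57.3, 70.6 and 52.7 RPKM against 40.2, 47.1 and 44.5 RPKM (-0.44, adjusted p = 0.0134). The large core protein Uqcrc1 was 89.5, 109 and 92.9 RPKM against 73.9, 85.1 and 78.5 RPKM (-0.29, adjusted p = 0.0305). Both were separate as deposited, and both missed the threshold after rescaling (adjusted p = 0.0528 and 0.271). Uqcrb was the member of complex III that was not called (-0.27, adjusted p = 0.0554).

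Complex IV has tissue isoforms, which allowed members of 1 position to be set side by side. Cox4i1, the common form of the subunit that holds the regulatory nucleotide site, was 388, 566 and 398 RPKM against 266, 278 and 286 RPKM (-0.68, SE 0.146, adjusted p = 0.00560). Cox6a1, the most abundant member of the complex by the mean over both groups although below Cox4i1 in every control, was 379, 542 and 394 RPKM against 306, 348 and 311 RPKM (-0.43, SE 0.143, adjusted p = 0.0356). In both genes control library B was the highest and the groups were separate. Cox6b2, the form of Cox6b1 known from testis, had the largest fall of the complex. It was 10.3, 13.1 and 9.83 RPKM against 5.11, 3.97 and 5.29 RPKM (-1.06, SE 0.131, adjusted p = 0.000459), whereas Cox6b1 fell from 215, 295 and 214 RPKM to 162, 169 and 164 RPKM (-0.53, adjusted p = 0.00882). The groups were separate in both, and the difference between the 2 isoforms was not tested. Cox8a fell from 300.3, 345 and 314 RPKM to 229, 183 and 240.4 RPKM (-0.56), and Cox7a2, Cox7a2l and Cox7b fell by 0.63, 0.63 and 0.55 on the log2 scale.

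The forms of complex IV known from heart and skeletal muscle stood far below the common forms. Cox6a2, the muscle form of Cox6a1, was the only member called higher, at 0.615, 0.125 and 0.535 RPKM in the controls and 1.45, 1.43 and 1.21 RPKM in the KO-labelled libraries (0.74, SE 0.147, adjusted p = 0.00393). It passed the minimum mean only through the group where it was high, so this call is no evidence of a direction of the muscle forms. Cox7a1, the muscle form of Cox7a2, was 10.3, 9.10 and 7.45 RPKM against 7.27, 9.45 and 6.17 RPKM (-0.22, SE 0.158, adjusted p = 0.275), with overlapping groups. Cox8b, the muscle form of Cox8a, was at 0.744, 0.228 and 0.442 RPKM against 0.0905, 0.0925 and 0 RPKM and was not tested. Cox4i2, the hypoxia and lung form of Cox4i1, fell from 0.997, 1.03 and 1.24 RPKM to 0.776, 0.534 and 0.363 RPKM (-0.43, adjusted p = 0.0177). Of the 9 skeletal muscle markers, 4 could be tested, of which 3 fell and 1 rose. Their summed level was 7.64 to 8.30 RPKM in the controls and 5.52 to 6.01 RPKM in the KO-labelled libraries, and their part in the muscle isoforms was not tested. Cox5a was the other member of complex IV not called, at 90.9, 124 and 89.1 RPKM against 88.0, 90.6 and 91.0 RPKM (-0.16, adjusted p = 0.315), with control library B alone standing high.

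**Figure D3:**
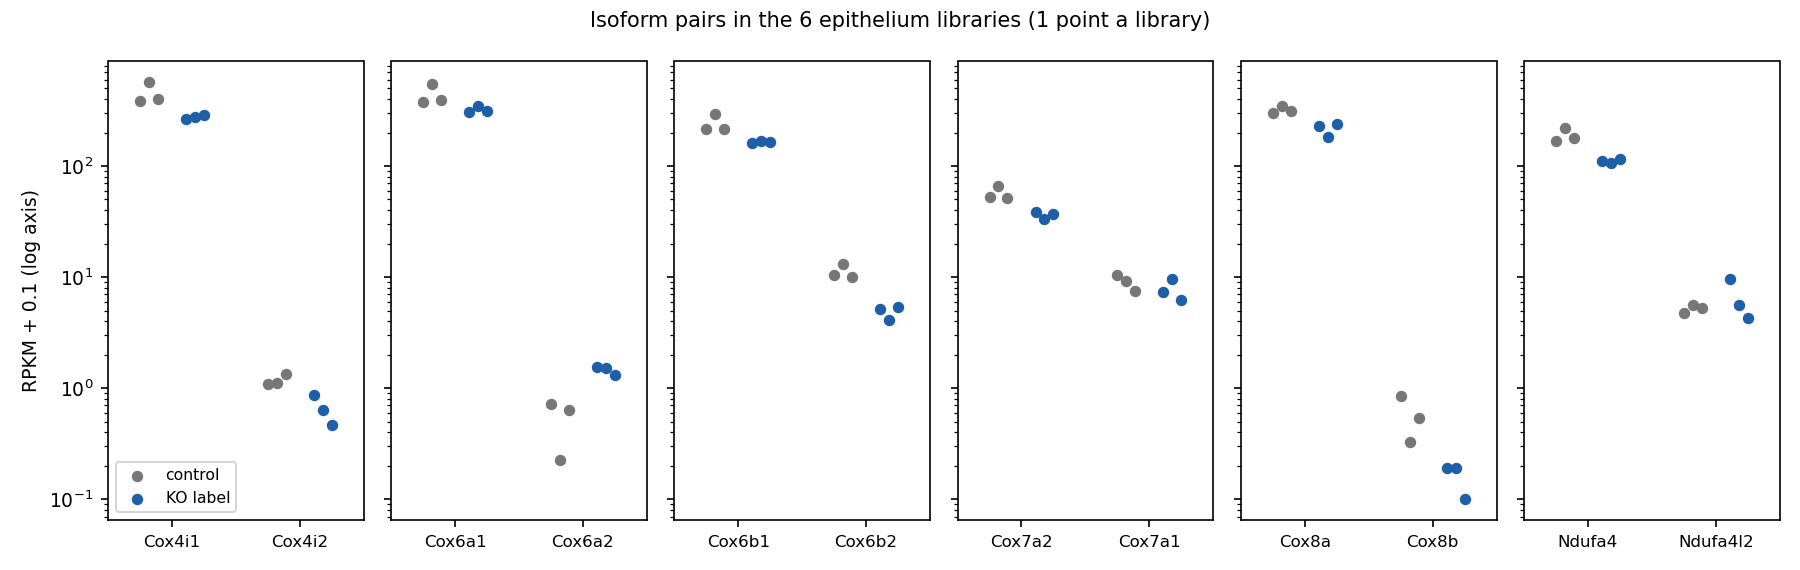
RPKM + 0.1 on a log axis in the 6 epithelium libraries for pairs of isoforms, with the common form on the left and the tissue form on the right of each panel, grey for control and blue for KO label, 1 point a library. The common forms all lay lower in the KO-labelled libraries, Cox6a2 lay higher (1.21 to 1.45 against 0.125 to 0.615 RPKM), and Cox7a1 and Ndufa4l2 overlapped between the groups.

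In complex V the alpha and beta subunits of the catalytic head had differences near the small end of the range as deposited. Atp5b, the beta subunit that holds the catalytic sites and the most abundant member of the complex, was 397, 434 and 408 RPKM against 363, 384 and 379 RPKM (-0.14, SE 0.075, adjusted p = 0.153). Atp5a1, the alpha subunit, was 256, 286 and 259 RPKM against 213, 229 and 227 RPKM (-0.26, SE 0.076, adjusted p = 0.0206). The groups were separate in both genes by a small margin, and after rescaling their differences were 0.04 and -0.08 and neither was called. With a length trend removed they were -0.07 and -0.27, and Atp5a1 was called (adjusted p = 0.0152 by limma). Atp5e, the epsilon subunit of the rotor, fell from 220, 397 and 244 RPKM to 165, 185 and 171 RPKM (-0.67, SE 0.204, adjusted p = 0.0243). Atp5k, the e subunit of the membrane part, fell from 95.3, 151 and 107 RPKM to 72.7, 68.5 and 75.2 RPKM (-0.67, SE 0.156, adjusted p = 0.00804). Control library B was far above A and C in both, with SEs of 0.204 and 0.156.

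The ring of c subunits, which turns as protons pass, is encoded by 3 genes for the same mature protein. Atp5g1 fell from 79.1, 91.6 and 78.7 RPKM to 55.3, 56.0 and 54.1 RPKM (-0.58, SE 0.074, adjusted p = 0.000538). Atp5g3, the most abundant of the 3, fell from 201, 260 and 223 RPKM to 159, 182 and 177 RPKM (-0.40, adjusted p = 0.0159). Atp5g2 was 165, 162 and 187 RPKM against 143, 81.3 and 139.9 RPKM and was not called (-0.53, SE 0.207, adjusted p = 0.0583). KO-labelled library B alone was far down in Atp5g2, although the groups did not overlap. Atp5g2 was called without any 1 of the KO-labelled libraries. Atp5g3 lost its call on rescaling and Atp5g1 did not.

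Control library B was the highest of the 3 controls in 73 of the 81 tested members, against 37.0% of all rows. Its median distance from the mean of A and C was 0.34 (log2) over the members and -0.021 over all rows. Without it, 66 members were still lower and 1 higher, with a median of -0.42. With rescaling as well, 50 were lower and 2 higher, and the complex medians were -0.35, 0.07, -0.33, -0.31 and -0.23 for complexes I to V. Over all libraries left out in turn, 60 to 67 members were lower, and 54 were lower each time. The shares of all rows called in the fits without a library were not counted, so these counts have no background beside them. Among the genes named above, the call of Uqcrc1 was lost without control B, control C, or KO-labelled A or C (adjusted p up to 0.102). That of Cox4i2 was lost without control C or KO-labelled B or C (up to 0.0596), those of Cox6a1 and Atp5e without KO-labelled A or C (up to 0.102 and 0.0707), and those of Atp5a1 and Atp5g3 without KO-labelled A (0.0790 and 0.0593).

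**Figure D4:**
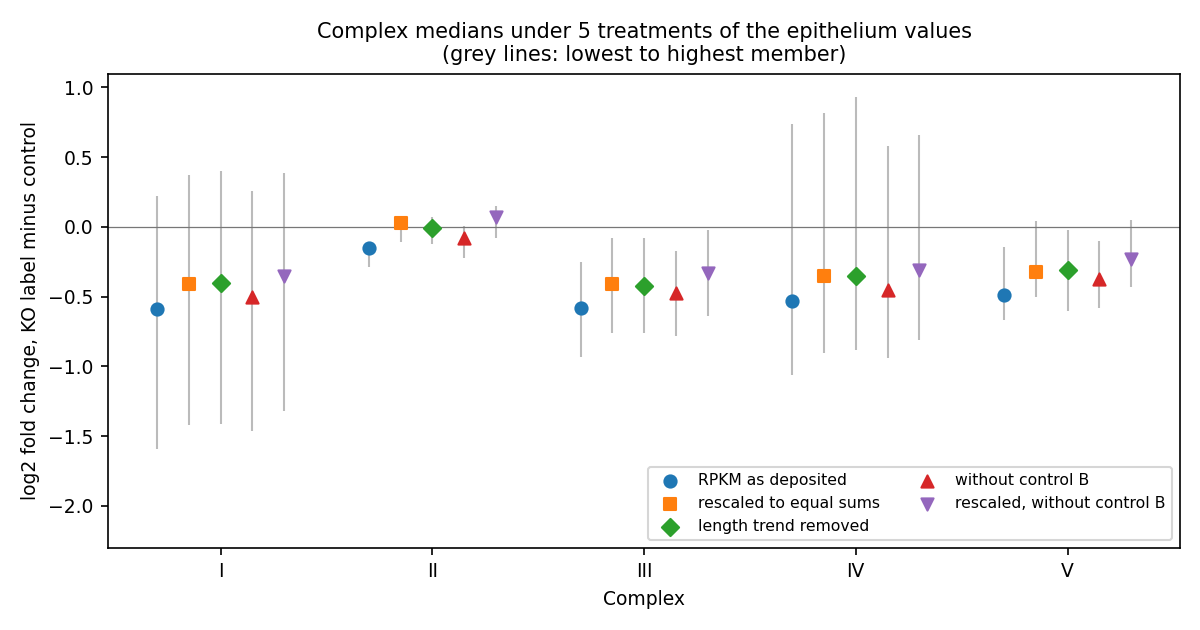
Median log2 fold change of the tested members of complexes I to V in the epithelium (symbols) with the lowest and highest member (grey lines), for the RPKM as deposited, rescaled to equal sums, with the length trend removed, without control library B, and rescaled without control library B. The medians of complexes I, III, IV and V stayed between -0.59 and -0.23, and that of complex II between -0.15 and 0.07.

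The members have short annotated transcripts, with a median of 669.5 bases. Across the whole table the fold change varied with length, though not steadily. All rows of 500 to 750 bases had a median of -0.20, and those of 3000 bases or more a median of 0.14, but the 887 rows under 500 bases had a median of -0.02, with 23.6% called lower. The 12 members under 500 bases had the largest median fall of any bin (-0.77), with 11 called lower. Within the members, fold change and length had a Spearman rho of 0.47 (n = 81 genes in the same libraries), and fold change and level one of -0.07. In the bin of 500 to 750 bases, 31 of 36 members were called lower (median -0.53), against 42.2% of all rows there. With the length trend removed, 55 members (67.9%) were lower, against 28.6% of all rows, and 1 was higher, against 28.6%. The complex medians were then -0.40, -0.01, -0.42, -0.35 and -0.31 for complexes I to V. In all, 52 members were lower as deposited, after rescaling and after removal of the length trend. The share of all rows that were lower in each of these settings was not counted, so the 52 have no background beside them.

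**Figure D5:**
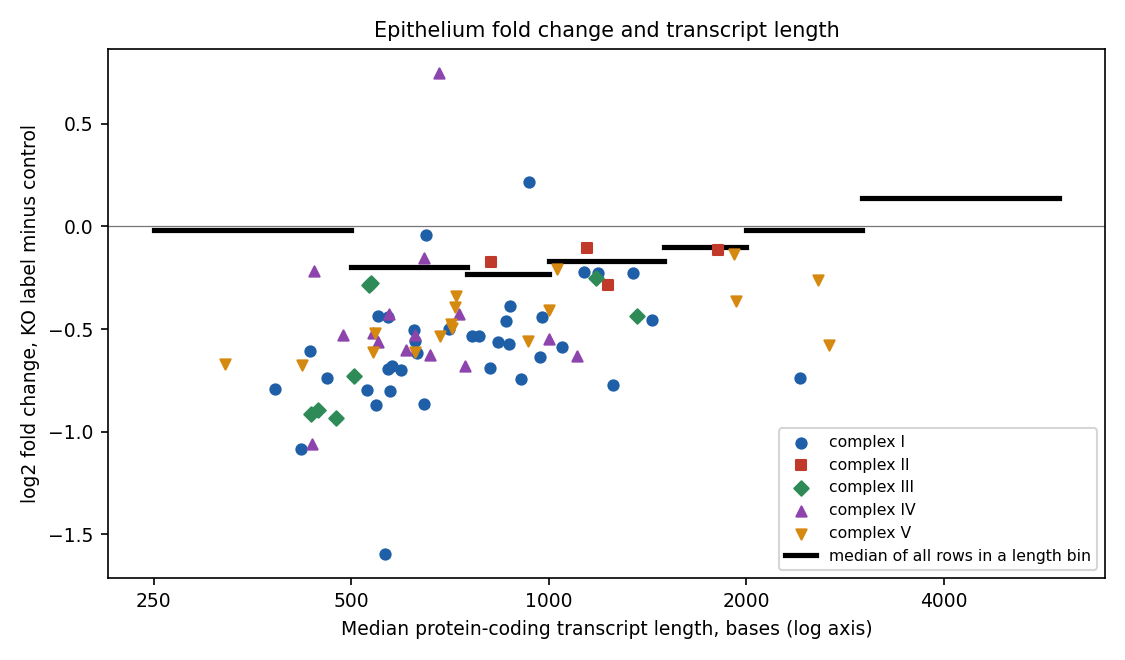
Log2 fold change in the epithelium (KO label minus control) of the 81 tested members against median protein-coding transcript length in bases on a log axis, with a symbol for each complex and black bars for the median of all rows in a length bin (the first and last bins are open and drawn to the plot's range). Of the 77 members outside complex II, 73 lay under the median of their own length bin, as did 2 of the 4 members of complex II.

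The other genes of the system were taken from lists. Of 10 subunits and electron carriers that the symbols left out, 7 fell and 0 rose (median -0.42, and 4 after rescaling). Coq7, of ubiquinone synthesis, fell by 0.87 and Etfb, of the electron transfer flavoprotein, fell by 0.76 on the log2 scale. Cycs, cytochrome c, was 17.5, 20.4 and 19.8 RPKM against 18.3, 16.9 and 18.1 RPKM (-0.10, adjusted p = 0.278) and overlapped. Of 44 assembly factors tested, 17 fell and 1 rose (median -0.24, with 11 and 5 after rescaling). The largest fall was that of Uqcc3, an assembly factor of complex III, from 29.7, 34.9 and 26.6 RPKM to 11.2, 13.4 and 15.8 RPKM (-1.12, adjusted p = 0.000420), and Sdhaf2, which helps to insert the flavin of Sdha, rose (0.24, adjusted p = 0.0210). Of 16 genes of the tricarboxylic acid cycle and pyruvate dehydrogenase, 6 fell and 2 rose (median -0.12), while after rescaling 2 fell and 6 rose. Of all rows, 29.6% were lower and 27.5% higher, and 20.3% and 37.0% after rescaling. The 6 that fell, and the 6 that rose after rescaling, were near these shares, and no list was tested against them. Of 77 mitochondrial ribosomal proteins 49 fell and 0 rose (median -0.36, with 32 and 2 after rescaling). The cytoplasmic ribosomal proteins, which are not mitochondrial but have transcripts of a like length (median 712.75 bases), gave 76 lower and 1 higher of 86 (median -0.53, with 62 and 1 after rescaling). This median lies beside the -0.54 of the respiratory members, and no fall here was shown to be particular to the respiratory chain.

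Among 12 regulators of mitochondrial genes, 4 fell and 4 rose (median 0.03), which is near the shares of all rows given above. After rescaling 1 fell and 5 rose, and these counts were not tested against those shares. The values of single regulators are a description. Gabpa and Gabpb1, the subunits of the ETS factor GABP, rose by 0.37 and 0.31 (adjusted p = 0.00505 and 0.0106). Ppargc1a, the coactivator PGC-1alpha, was 0.687, 0.618 and 0.769 RPKM against 0.365, 0.279 and 0.406 RPKM (-0.33, adjusted p = 0.0184), a low level with separate groups. It passed the minimum mean of 0.5 RPKM only through the control group, where it was high, so this call is no evidence of a direction. Esrra, a receptor of the ERR element, was 34.3, 39.3 and 32.6 RPKM against 30.3, 29.5 and 29.0 RPKM (-0.25, adjusted p = 0.0292). Nrf1 differed by 0.05 (adjusted p = 0.583).

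Mitochondrial DNA encodes core subunits of complexes I, III, IV and V. Of its 13 mRNAs, 5 fell, near the 29.6% of all rows, and 0 rose (median -0.37). COX2 was 153, 182 and 157 RPKM against 121, 93.3 and 126 RPKM (-0.53, adjusted p = 0.00871), while COX1 was 3820, 3574 and 3657 RPKM against 3657, 2721 and 4065 RPKM (-0.10, adjusted p = 0.644). KO-labelled library B was the lowest of all 6 libraries in 12 of the 13. The 13 mRNAs summed to 9980, 9052 and 9696 RPKM in the controls and to 8883, 6309 and 9867 RPKM in the KO-labelled libraries, with KO-labelled library C inside the range of the controls. Without KO-labelled library B the median was -0.12, and 5 still fell. ND4L with ND4, and ATP8 with ATP6, share reads because their genes overlap, so the split between them is uncertain.

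In Myc-CaP no subunit was called lower. Of 77 members tested, 0 were called lower, against 1.89% of all rows, and 1 was called higher, against 4.54% of all rows (limma, Benjamini-Hochberg). At an unadjusted p under 0.05 (limma), 11 were higher and 1 was lower. The shares of all rows at that threshold were not counted, so this split has no background beside it. The median was 0.04 over the members and -0.014 over all 13974 rows tested, and the complex medians were 0.07, 0.01, 0.05, 0.05 and 0.00 for complexes I to V. In 25 members both KO libraries lay above both EV libraries, against 24.9% of all rows, and in 10 both lay below, against 26.6% of all rows. The members summed to 20550 and 19380 TPM with EV and to 21200 and 20130 TPM with KO, which overlap, and took 2.06% and 1.94% against 2.12% and 2.01% of the table. The complex II to complex I ratio was 0.138 and 0.149 with EV and 0.144 and 0.153 with KO, and also overlapped. Untested under the minimum mean were Ndufa4l2, Cox4i2, Cox6a2, Cox6b2, Cox7b2, Cox8b and Cox8c, of which Cox6a2, Cox6b2, Cox7b2 and Cox8c were listed at 0 in all 4 libraries.

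The member called in Myc-CaP was Sdhb, the iron-sulfur subunit of complex II. It was 252 and 237 TPM with EV and 319 and 301 TPM with KO (0.34, SE 0.062, adjusted p = 0.0469). Both KO libraries lay above both EV libraries, but the call was lost without any of the 4 libraries in turn, without a filter on low values and without the variance trend. The other members of complex II differed by 0.03 (Sdha), 0.00 (Sdhc) and -0.05 (Sdhd). Ndufs5, which fell most in the epithelium, was 43.0 and 39.2 TPM against 41.6 and 32.3 TPM (-0.16, SE 0.134, adjusted p = 0.561), with overlap. Ndufa1 was 79.8 and 74.5 TPM against 96.3 and 93.2 TPM (0.29, SE 0.062, adjusted p = 0.0681), and Ndufv3 41.1 and 37.7 TPM against 52.3 and 46.2 TPM (0.31, SE 0.089, adjusted p = 0.126). Both were separate and higher with KO without passing the threshold.

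The most abundant subunits overlapped between the Myc-CaP groups. Atp5b was 1689 and 1603 TPM with EV and 1724 and 1654 TPM with KO (0.04, adjusted p = 0.782), and Cox4i1 was 919 and 790 TPM against 916 and 789.5 TPM (0.00, adjusted p = 0.994). The 2 libraries of a group differed more than the groups did in both genes. Ndufa4 was 481 and 428 TPM against 449.5 and 449.4 TPM (-0.01), and Uqcr10 was 409 and 347 TPM against 442 and 393 TPM (0.15, adjusted p = 0.485), again with overlap. The common isoforms of complex IV dominated as in the epithelium: Cox6a1 was 592 to 772 TPM over the 4 libraries and Cox7a2 141 to 177 TPM, while Cox7a1 was 2.49 to 4.30 TPM. In the test without a replicate block, the related lists gave 0 calls in either direction except for the assembly factors, with 1 of 44 higher. Their medians lay between -0.16 (mtDNA-encoded mRNAs) and 0.02 (tricarboxylic acid cycle). No leukocyte-type list had a marker called in Myc-CaP, and Ptprc was listed at 0 in 3 of the 4 libraries.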

How the data were processed

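RNA-seq values of 10 libraries were used as deposited. The authors aligned reads to GRCm38/mm10 (TopHat2 in the study's methods, HISAT2 with HTSeq and DESeq2 in the submitters' processing notes), counted them per gene, and deposited RPKM for the epithelium and TPM for Myc-CaP. The gene lengths behind the RPKM and TPM are not stated in the sources used here, and depth is unknown. All 10 per-sample files held the same values as the series tables, and 0 columns had no sample.

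Rows whose mean reached 0.5 entered the test on log2(value + 1) with limma 3.58.1 (lmFit, eBayes with trend) in R 4.3.3, for each table on its own, two-sided, with Benjamini-Hochberg adjustment over all rows tested. The scale understates changes of low genes. The study's DEGseq needs counts. The fit was tested on simulated data. Transcript lengths came from GENCODE M21, as the median over the annotated protein-coding transcripts of a gene (651 bases for Ndufs1 and 2413 bases for Ndufb2). They need not be the lengths of the transcripts expressed here, and every result on length rests on them. The 7 rows with -ps symbols were left out (highest value 0.781 RPKM).

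Members and lists were chosen with earlier results of these data known. Named were the most abundant member and the largest called falls and rise of each complex, isoform sets, cofactor and catalytic subunits, and members called in opposite directions (there were none). Single values of 1 member that the rule named, and the name of the shared deletion, are not reported here. Other genes were named as examples after their values were seen. Alternatives were another pseudocount, filters, quantile normalization, no variance trend, equal sums, removal of a length trend, a replicate block, the study's thresholds and leaving out each library. Rescaling together with the block or with a library left out was added after seeing the data.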

Additional observations from a re-analysis of the deposited data

Results flagged for a closer look

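In 23 of the 77 members tested in both tables, every epithelium library labelled Arid1a KO lay below every control and both Myc-CaP KO libraries lay above both EV libraries, which is what drew attention to them. The difference between the tables was not tested, since the units differ. Of the 12123 rows tested in both tables, 9.82% did the same. Another 9 members were lower in every KO library of both tables, and the share of all rows for this was not counted. In the epithelium alone, 91.4% of the tested members lay below every control, against 34.4% of all rows. In Myc-CaP, 25 members lay above both EV libraries and 10 below, against 24.9% and 26.6% of all rows. The 23 and the 9 are thus not read as a link between the tables. None of the 23 was called in Myc-CaP in the test without a replicate block. For 22 of them, the Myc-CaP log2 fold changes were, in complex I, Ndufa1 (0.29), Ndufa2 (0.24), Ndufa5 (0.20), Ndufa7 (0.15), Ndufb11 (0.14), Ndufb4 (0.16), Ndufb5 (0.08), Ndufb6 (0.21), Ndufb9 (0.15), Ndufs7 (0.18), Ndufs8 (0.15), Ndufv2 (0.12) and Ndufv3 (0.31). In complex III they were Uqcrc2 (0.04) and Uqcrq (0.18), in complex IV Cox5b (0.14), Cox7a2l (0.27) and Cox8a (0.17), and in complex V Atp5e (0.18), Atp5g2 (0.18), Atp5h (0.05) and Atp5j (0.07). Epithelium log2 fold changes of the same 22 ran from -1.09 (Ndufa1) to -0.25 (Uqcrc2). Cell source, strain, driver mutation and unit all differ between the tables and cannot be told apart.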

How the results depend on the processing

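In the epithelium, 60 to 69 members were lower under a pseudocount of 0.1, no filter (61), a minimum mean of 5, quantile normalization (65), no variance trend, or with any 1 library left out. The shares of all rows called in these settings were not counted. The medians ran from -0.66 to -0.50 for complex I, -0.21 to -0.08 for complex II and -0.65 to -0.47 for complex III. Those of complexes IV and V ran from -0.60 to -0.44 and from -0.55 to -0.37. With a minimum mean of 5, 0 members were higher, because Cox6a2 was no longer tested. The thresholds of the study left 32 lower, 15 to 43 with any 1 library left out (15 without control B), 12 after rescaling and 7 with rescaling and no control B. Rescaling to equal sums moved the median over all members to -0.36 and those of complexes I to V to -0.41, 0.03, -0.41, -0.35 and -0.32. Rescaling without control B gave -0.28 over all members (-0.35, 0.07, -0.33, -0.31 and -0.23), with 50 lower and 2 higher, and without KO B it gave -0.34 (-0.39, -0.01, -0.39, -0.33 and -0.26), with 46 lower. The latter 2 settings were chosen after seeing the data. Removal of the length trend gave -0.35 (-0.40, -0.01, -0.42, -0.35 and -0.31). In Myc-CaP, 0 members were higher without a filter, without a variance trend, by the thresholds of the study and with any 1 library left out, and the medians then ran from 0.01 to 0.09 over all members, 0.04 to 0.15 for complex I and -0.03 to 0.04 for complex V. No called result changed direction under these alternatives.

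The replicate letters and numbers name samples and were not shown to pair them. Deviations of same-lettered epithelium libraries correlated at 0.041, 0.009 and -0.057. With 2 libraries a group, the deviations within a Myc-CaP group mirror each other, so all pairs give 1 value. It was 0.195 for the same-numbered pairs and so -0.195 for the crossed pairs. With the replicate block, 70 epithelium members were lower, and 58 with rescaling as well (median -0.36, complexes -0.41, 0.03, -0.41, -0.35 and -0.32). Shares of all rows were not counted for the block in the epithelium. In Myc-CaP the block gave 2 lower, against 9.43% of all rows, and 20 higher, against 10.4% of all rows. Among these were 12 of the 22 members listed above as lower in the epithelium and higher in Myc-CaP. Those 22 were picked for being higher in these same Myc-CaP libraries, so the 12 calls are no support for that direction. Of the related lists in Myc-CaP, the block gave 6 lower and 0 higher of the 13 mtDNA-encoded mRNAs. It gave 13 lower and 3 higher of 77 mitochondrial ribosomal proteins, and 3 lower and 5 higher of 44 assembly factors. Of 87 cytoplasmic ribosomal proteins, 8 were lower and 5 higher. Rescaling was not run in Myc-CaP, since the TPM sums are equal. The cause of these changes was not tested. Myc-CaP had 2 libraries a group, and gene lengths and depth were not given.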
